A study of Mus musculus with 9 samples.

Results

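The genes of the coagulation and plasminogen system were followed in cultured mouse cells labelled as retinal ganglion cells (RGCs). RGCs are the neurons whose axons form the optic nerve, and the markers of that label are given below. The members were set as a list of gene symbols, with earlier results of these data known: F3, Tfpi, Thbd, Procr, F2r and Vwf on the clotting side, and Plau, Plat and Plaur on the plasminogen side. These were 9 of the 22322 genes in the expression table, and all 9 were among the 12145 genes with enough reads to be tested.

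RNA of 9 libraries was sequenced, 3 for each of 3 groups of WT cells. Normal RGCs received no D-galactose. Aging RGCs received D-galactose at 30 mg/mL, a sugar used to bring on features of ageing in culture. Aging RGCs + USCs medium received D-galactose and medium conditioned by urine-derived mesenchymal stem cells (USCs), from which the USCs had been removed. Both aging groups thus carried the D-galactose treatment. No normal RGCs with USCs medium were analysed here, so what the medium does without D-galactose is not among the comparisons. By the paper's account USCs were grown in a special medium, and RGCs in high-glucose medium with serum. No group with that special medium free of USC products was analysed here. In a difference with USCs medium, the base medium and what the USCs added to it cannot be told apart. The cells were bought and passaged in serum, and a group was 3 wells, so each p-value measures the spread between wells of one source of cells. Normal RGCs had library totals of 19814241 to 22342288 expected counts, aging RGCs of 18189616 to 19556335, and the group with USCs medium of 20238824 to 21054326.

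The labelled cell type was checked against its markers. Of the 10 RGC markers listed, only 3 exceeded 1 CPM, a count scaled to the size of its library, on average in each group. These were Rbpms, Nefl and Isl1, at 61.2, 63.6 and 18.9 CPM in normal RGCs. Pou4f2 was at 0 in all libraries, and Thy1 was at 0 in all aging RGCs and all aging RGCs + USCs medium. Summed, the list reached 139 to 150 CPM in the normal group, 99.3 to 103 in the aging group and 75.4 to 83.5 with USCs medium. Epithelial markers summed to 1063 to 1291 CPM over the 9 libraries, nearly all of it from Krt8, Krt18 and Krt19 (410, 321 and 365 CPM in normal RGCs). Of the 8 listed, 5 exceeded 1 CPM on average in each group, these and Ocln and Epcam (15.8 and 1.97 CPM in normal RGCs). Cdh1, Cldn4 and Krt7 averaged 0.105 CPM or less in each group. Mesenchymal markers summed to 2135 to 2446 CPM, mainly from Vim (1695, 2006 and 1970 CPM in the normal, aging and medium groups) and Col3a1 (447, 389 and 235). Here too 5 of 8 exceeded 1 CPM in each group, with Col1a1, Pdgfra and Pdgfrb at 14.7, 6.60 and 4.90 CPM in normal RGCs. Col1a2, Dcn and Lum averaged 0.400 CPM or less in each group. Most of the RGC list thus did not bear out the label, and the name RGCs is used here as the label gives it. What the cells are was not tested. In such bulk RNA, fewer cells of a type and less RNA per cell cannot be told apart.

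As background, clotting starts when tissue factor, the product of F3, meets its plasma partner and a chain of proteases ends in thrombin, which cuts fibrinogen into fibrin. Fibrin and other matrix are removed by plasmin, which is cut from plasminogen by urokinase (Plau) or tissue-type plasminogen activator (Plat), and both activators are held back by serpins, a family of protease inhibitors. In nervous tissue these proteases are known to act outside clotting too, on matrix, on growth factors and on protease-activated receptors.

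The 9 genes lay on 7 chromosomes of GRCm38, and none shared exon bases with another annotated gene. Clotting genes stood at chr3:121723537-121735048 on the plus strand (F3), chr2:84432855-84476775 on the minus strand (Tfpi), chr2:148404466-148408188 on the minus strand (Thbd, a gene of a single exon), chr2:155751117-155755471 on the plus strand (Procr), chr13:95601803-95618487 on the minus strand (F2r) and chr6:125546774-125686679 on the plus strand (Vwf, 56 exons after overlapping ones were merged). Genes of the plasminogen side stood at chr14:20836660-20843385 (Plau), chr8:22757727-22782844 (Plat) and chr7:24462484-24475968 (Plaur), all on the plus strand. Values were given per gene, so single exons and isoforms were not compared.

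Promoter sequence was available in the RefSeq table for 5 of the 9 members, on GRCm38.p6, and not for Plau, Plat, Thbd and Vwf. The 4 members printed here are those whose sequence held the motif shown in capitals. Each had lower RNA in aging RGCs + USCs medium than in normal RGCs, as given further on, a call made for 29.9% of all genes tested. Plau and Plat, without a sequence here, were lower too, so 6 of the 9 members were. In aging RGCs against normal RGCs, F3 fell, F2r rose, and Plaur and Procr did not pass the test used below. With USCs medium against aging RGCs, F3 rose, F2r and Plaur fell, and Procr did not pass. A link between the motif and these levels was not tested. Each run starts 250 bases before the start that the RefSeq table uses for the gene and stops before the first base of the gene in GENCODE, whose coordinates are given above. The RefSeq start lies 21 bases inside the GENCODE gene for F2r and 100 bases inside it for Procr, so these runs are shorter. Runs are written 5′ to 3′ on the strand of the gene, with the AP-1 motif TGANTCA in capitals. They are chr3:121723287-121723536 (F3, plus strand), chr7:24462233-24462482 (Plaur, plus strand), chr13:95618488-95618716 (F2r, minus strand) and chr2:155750967-155751116 (Procr, plus strand).
F3: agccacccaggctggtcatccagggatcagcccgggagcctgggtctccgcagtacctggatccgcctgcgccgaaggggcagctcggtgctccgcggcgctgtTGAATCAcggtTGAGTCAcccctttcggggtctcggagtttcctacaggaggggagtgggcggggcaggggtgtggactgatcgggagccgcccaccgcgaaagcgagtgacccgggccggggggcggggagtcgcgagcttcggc
Plaur: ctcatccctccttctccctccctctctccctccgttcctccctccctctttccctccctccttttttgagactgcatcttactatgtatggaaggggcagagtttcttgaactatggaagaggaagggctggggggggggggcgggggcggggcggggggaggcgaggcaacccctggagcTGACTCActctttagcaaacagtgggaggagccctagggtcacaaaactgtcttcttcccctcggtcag
F2r: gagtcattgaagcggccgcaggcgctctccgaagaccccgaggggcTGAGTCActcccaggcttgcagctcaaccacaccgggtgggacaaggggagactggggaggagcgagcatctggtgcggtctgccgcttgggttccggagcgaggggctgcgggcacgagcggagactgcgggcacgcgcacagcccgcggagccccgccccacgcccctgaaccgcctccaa
Procr: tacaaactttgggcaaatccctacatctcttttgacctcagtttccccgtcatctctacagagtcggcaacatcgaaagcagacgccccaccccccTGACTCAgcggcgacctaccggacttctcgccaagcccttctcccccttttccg

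AP-1 is the dimer of Fos and Jun proteins, which bind such letters in the promoters of many growth and stress genes. Over the table's windows of 300 bases, which add 50 bases after the RefSeq start, the letters TGANTCA occurred in 4 of the 5 members with a window and in 7.81% of the 32851 windows in the table. F3 held a pair of matches, at positions −146 to −140 and −135 to −129, where the first base of the gene in GENCODE counts as 0. Plaur had its match at −70 to −64, Procr at −54 to −48 and F2r at −183 to −177. From the RefSeq starts the matches of Plaur, Procr and F2r lay at −69 to −63, −154 to −148 and −204 to −198. Neither of the 2 windows of Tfpi held one. Of the other motifs searched on both strands, GGGCGG (SP1) occurred in 4 of the 5 members and in 35.7% of all windows, TATAAA in 2 members and 13.6%, and GCGNGGGCG (EGR1) in Plaur alone, where it overlapped the SP1 letters, and in 5.55%. TTCNNNGAA (STAT) and the NF-kB motif occurred in none of the members and in 8.3% and 5.8% of all windows. The windows of F3 and F2r held 70.3% and 68.7% G or C, against a median of 52.7% over all windows. These matches describe letters, and binding of any factor was not measured.

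The first comparison asked which members differed between aging RGCs and normal RGCs. With p-values of edgeR's quasi-likelihood test, adjusted by Benjamini-Hochberg over all genes tested, 2 members rose (Vwf and F2r), 3 fell (F3, Plat and Plau) and 4 did not pass at an adjusted p of 0.05. Among all genes tested 23.6% rose and 23% fell, so the members' shares of 22.2% and 33.3% lay near the background. Only Vwf was a DEG, which here means a gene past that threshold with at least a 2-fold change, against 1.09% of all genes as upregulated and 1.56% as downregulated DEGs. The groups did not overlap for 4 members (F3, Plau, F2r and Vwf), and they did not overlap for 53% of all genes. The median log2 fold change of the members was −0.12, beside 0.0018 for all genes tested.

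The second comparison asked which members differed when USCs medium was given to aging RGCs. F3 alone rose, 5 members fell (Plau, Plat, Vwf, F2r and Plaur) and 3 did not pass the same edgeR test. Of all genes tested 27.1% rose and 26% fell. Plau and Vwf were downregulated DEGs, a call made for 4.21% of all genes, and no member was an upregulated DEG, against 1.24%. For 6 members the groups did not overlap, as for 59.8% of all genes. The median log2 fold change was −0.27 for the members and −0.0067 for all genes.

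In aging RGCs + USCs medium against normal RGCs, no member rose and 6 fell (Plau, Plat, F3, Plaur, F2r and Procr), where 30.6% of all genes rose and 29.9% fell. Plau and Plat were downregulated DEGs, against 5.24% of all genes, and 1.47% of all genes were upregulated DEGs. The groups of 6 members did not overlap, as for 63.8% of all genes, and the median log2 fold change of the members was −0.35 beside −0.013 for all genes. The 3 comparisons share libraries, so their values for a gene are not independent of each other.

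**Figure D1:**
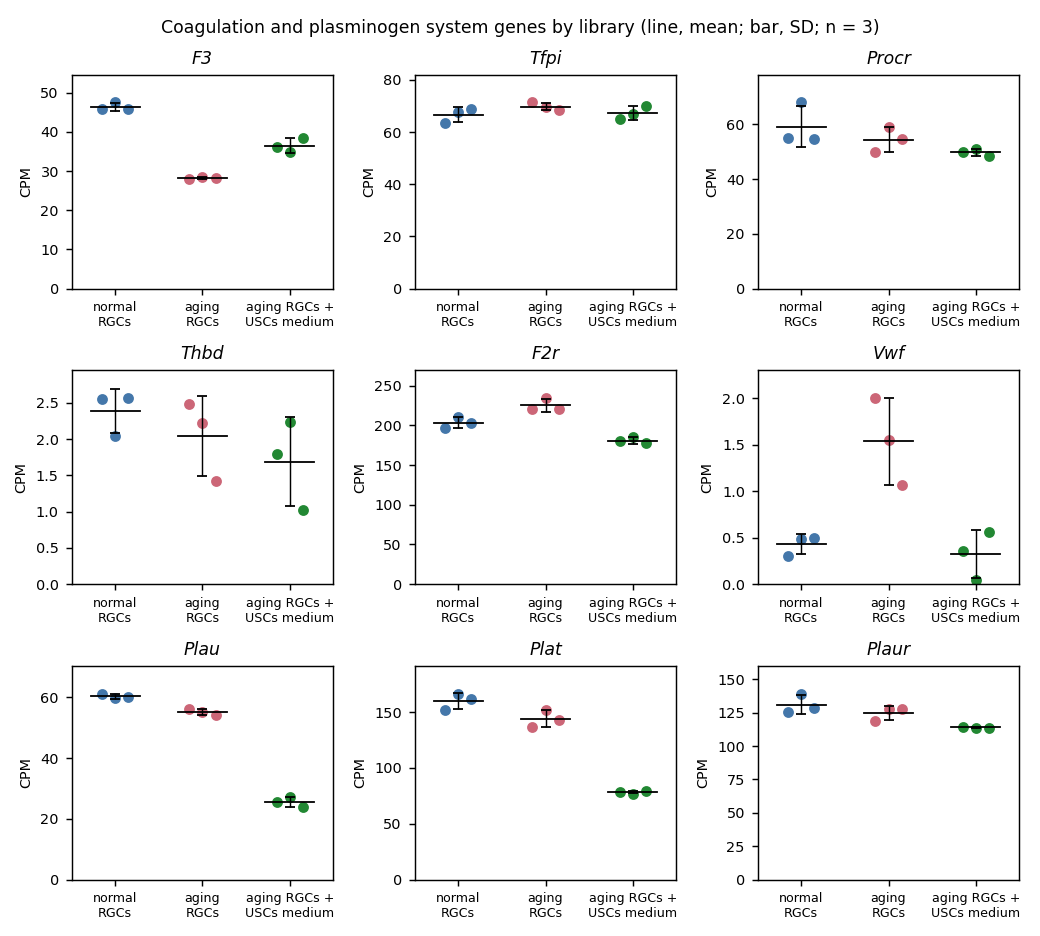
Level of each of the 9 genes in CPM (vertical axes, linear and starting at 0) in the normal group, the aging group and the group with USCs medium; points are libraries, lines are means and bars are SD (n = 3). F3 is lowest in aging RGCs (28.1 to 28.4 CPM), Plau and Plat are lowest with USCs medium, and Vwf is highest in aging RGCs on no more than 2.00 CPM.

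F3 encodes tissue factor, the membrane protein that starts the clotting chain and also signals into the cell. Its level in CPM, scaled for library size and composition, was 45.8, 47.5 and 45.8 in the 3 libraries of normal RGCs. It was 28.1, 28.4 and 28.3 in aging RGCs, and 36.1, 34.9 and 38.5 in aging RGCs + USCs medium. The 3 groups were therefore apart from each other in every library, with the libraries with USCs medium between the others. F3 fell by 39.0% in aging RGCs against normal RGCs, a log2 fold change of −0.71 ± 0.0586 (SE), with an adjusted p of 6.36e-11 by edgeR's quasi-likelihood test. With USCs medium it was 29.0% above aging RGCs (log2 fold change 0.37 ± 0.0604, adjusted p = 8.85e-06, edgeR) and stayed below normal RGCs, with a log2 fold change of −0.35 ± 0.0566 (adjusted p = 6.13e-06, edgeR). All 3 calls passed the adjusted p threshold in each of 19 alternatives, and none of the 3 reached a 2-fold change.

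Tfpi encodes tissue factor pathway inhibitor, which blocks the complex that tissue factor forms. It stood at 63.5, 67.8 and 68.9 CPM in normal RGCs, 71.4, 69.6 and 68.5 in aging RGCs, and 64.9, 66.9 and 70.2 with USCs medium. All 3 groups overlapped. The 95% interval of the log2 fold change ran from −0.03 to 0.16 for aging RGCs against normal RGCs, from −0.15 to 0.05 for USCs medium against aging RGCs, and from −0.08 to 0.11 for USCs medium against normal RGCs, so a change as large as that of F3 after D-galactose lay outside each interval. The ratio of F3 to Tfpi within a library, taken from FPKM values, which are scaled by transcript length, was 0.931 to 1.02 in the normal group, 0.534 to 0.578 in the aging group and 0.659 to 0.705 with USCs medium. On the log2 scale the mean ratio was −0.05 ± 0.0641 (SD, n = 3), −0.86 ± 0.0596 and −0.54 ± 0.0545 in that order, and the ranges did not overlap. Each of the 3 differences had p = 0.1 in a two-sided exact permutation test, the smallest value that 3 libraries against 3 allow. The size of 2 of them depended on the scale. With USCs medium the difference was 0.32 against aging RGCs and −0.49 against normal RGCs from FPKM, and 0.42 and −0.36 from CPM. The transcript length implied by count and FPKM of Tfpi was 2368 to 2400 bases with USCs medium. It was 2563 to 2638 bases in normal RGCs and 2463 to 2650 in aging RGCs.

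Thbd and Procr encode thrombomodulin and the endothelial protein C receptor, which together turn thrombin toward the anticoagulant protein C. Thbd was low, with 59, 42 and 52 counts in normal RGCs, 46, 43 and 28 in aging RGCs, and 35, 45 and 20 with USCs medium. The groups overlapped, and no comparison passed: the log2 fold change of USCs medium against normal RGCs was −0.50 with a 95% interval of −1.06 to 0.06 (adjusted p = 0.118, edgeR), and without replicate 2 of the medium group the adjusted p was 0.0462 in edgeR. Procr was at 54.9, 68.0 and 54.7 CPM in normal RGCs, 49.8, 59.1 and 54.6 in aging RGCs, and 50.1, 50.9 and 48.4 with USCs medium. The libraries with USCs medium lay below all normal ones and overlapped the aging ones. Procr was lower with USCs medium than in normal RGCs, with a log2 fold change of −0.25 ± 0.0688 (SE, adjusted p = 0.00269, edgeR). It did not pass for aging RGCs against normal RGCs (interval −0.26 to 0.02) or for USCs medium against aging RGCs (−0.13, interval −0.27 to 0.01, adjusted p = 0.119, edgeR), and the latter had an adjusted p of 0.0388 without replicate 1 of aging RGCs.

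F2r encodes protease-activated receptor 1, the main receptor through which thrombin signals to cells. Its level was 197, 210 and 202 CPM in normal RGCs, 220.5, 234 and 220.5 in aging RGCs, and 180, 185 and 178 with USCs medium. Each aging library was above each normal one, and each library with USCs medium was below both. The rise in aging RGCs was 10.8% (log2 fold change 0.15 ± 0.0364, adjusted p = 0.00139, edgeR). With USCs medium F2r fell by 19.7% from aging RGCs (−0.32 ± 0.0368 on the log2 scale, adjusted p = 3.38e-08, edgeR) and was below normal RGCs, with a log2 fold change of −0.17 ± 0.0367 (adjusted p = 0.000262, edgeR).

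Vwf encodes von Willebrand factor, a large adhesive protein of endothelial cells and platelets that also carries factor VIII. The counts were 7, 10 and 10 in normal RGCs, 37, 30 and 21 in aging RGCs, and 7, 1 and 11 with USCs medium. The aging libraries were above all others, and the normal and medium libraries overlapped. In CPM the levels were 0.427 ± 0.107 (SD, n = 3), 1.54 ± 0.469 and 0.324 ± 0.259. Vwf was upregulated in aging RGCs with a log2 fold change of 1.84 ± 0.438 (SE, adjusted p = 0.000991, edgeR) and downregulated with USCs medium against aging RGCs, by −2.23 ± 0.469 (adjusted p = 0.000215, edgeR). Without replicate 3 of the medium group the latter was −2.88, and over all libraries left out in turn it ran from −2.88 to −1.71 and passed each time. Against normal RGCs the change with USCs medium was −0.39, with a 95% interval of −1.56 to 0.78 (adjusted p = 0.574, edgeR).

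The calls on Vwf rest on few reads, and several values moved with them. On log2(FPKM + 1) and log2(FPKM + 0.1) limma gave adjusted p-values of 0.0602 and 0.0643 for aging RGCs against normal RGCs. The transcript length implied by count and FPKM of Vwf ran from 1583 to 9058 bases between libraries, so its FPKM did not follow its counts. Among the 1916 tested genes with an average log2 CPM under 2, a level that Vwf shares and that was set after the values were seen, 5.27% were at least 2-fold upregulated in aging RGCs and 18.2% at least 2-fold downregulated with USCs medium against aging RGCs. Endothelial markers summed to 60.6 to 66.5 CPM in the normal group, 71.2 to 74.8 in the aging group and 52.5 to 53.2 with USCs medium, and most of that was Flt1, at 50.4, 63.7 and 50.3 CPM. Cdh5 was 10.98, 7.16 and 1.42 CPM in the same order, while Cldn5 and Erg were at 0 in all 9 libraries. The summed platelet list was 4.16 to 4.93, 4.70 to 5.92 and 4.66 to 6.05 CPM, with Gp6 at 0 throughout. The part of these cells in the values of Vwf was not tested.

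Plau encodes urokinase, the activator that works mostly at the cell surface. Its level was 61.3, 59.7 and 60.1 CPM in normal RGCs, 56.3, 55.3 and 54.3 in aging RGCs, and 25.7, 27.2 and 24.0 with USCs medium. All 3 groups were apart, and the step between aging RGCs and USCs medium was much the larger. Plau was downregulated with USCs medium by 53.6% against aging RGCs, a log2 fold change of −1.11 ± 0.0573 (SE, adjusted p = 2.32e-15, edgeR), and by −1.23 ± 0.0564 on the log2 scale against normal RGCs (adjusted p = 8.52e-17, edgeR). The lower level in aging RGCs against normal RGCs was small, −0.13 with a 95% interval of −0.23 to −0.02, and its adjusted p of 0.0465 in edgeR was close to the threshold. It passed in 12 of 19 alternatives: the adjusted p was 0.0711 with DESeq2 and 0.0637 without the low-count filter, and 0.0572 to 0.139 when replicate 1 or 3 of normal RGCs or any replicate of aging RGCs was left out.

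Plat encodes tissue-type plasminogen activator, which works best on fibrin and is also released by neurons. It was at 152, 167 and 162 CPM in normal RGCs, 137, 152 and 143 in aging RGCs, and 78.7, 77.0 and 79.0 with USCs medium. The libraries with USCs medium stood below all others, and the normal and aging ones overlapped slightly. Plat fell by 45.7% with USCs medium from aging RGCs (log2 fold change −0.88 ± 0.0447, adjusted p = 1.53e-15, edgeR) and was also downregulated against normal RGCs (−1.03 ± 0.0442, adjusted p = 2.27e-17, edgeR). Aging RGCs were lower than normal RGCs by −0.15 ± 0.0420 on the log2 scale (adjusted p = 0.00391, edgeR).

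Plaur encodes the urokinase receptor, which holds urokinase on the cell surface. Its level was 125, 139 and 128 CPM in normal RGCs, 119, 128 and 128 in aging RGCs, and 114.2, 113.8 and 113.8 with USCs medium. The values with USCs medium were below all others, though only narrowly below the lowest aging library. The change with USCs medium was −0.13 ± 0.0431 against aging RGCs (adjusted p = 0.0123, edgeR) and −0.20 ± 0.0427 against normal RGCs (adjusted p = 0.00019, edgeR). The former did not pass without replicate 2 or 3 of aging RGCs (adjusted p = 0.0653 and 0.0688). Aging RGCs against normal RGCs did not pass for Plaur (−0.07, interval −0.16 to 0.02, adjusted p = 0.179, edgeR).

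**Figure D2:**
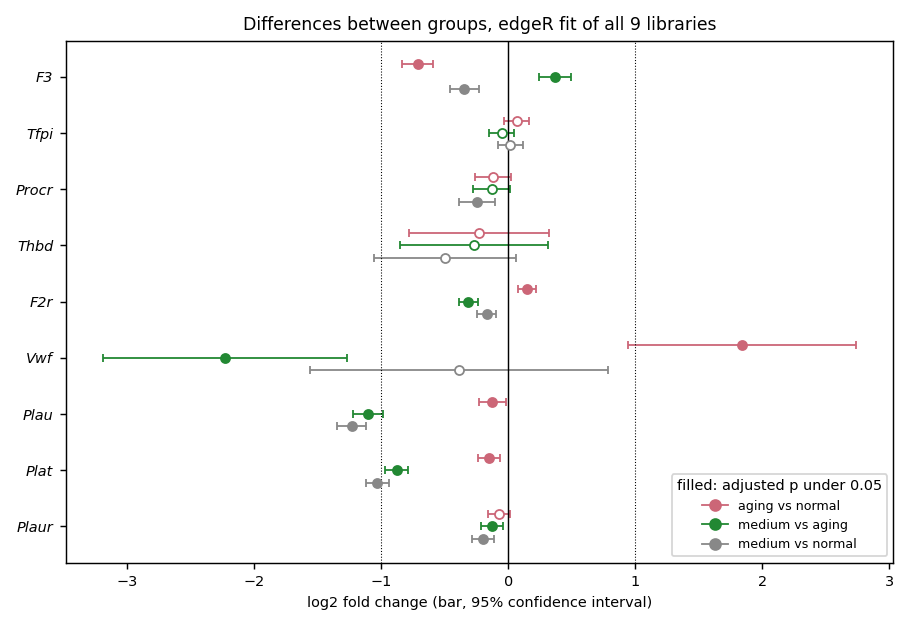
Log2 fold change of the 9 genes (horizontal axis) in the 3 comparisons, with 95% confidence intervals; filled points passed edgeR's test at an adjusted p under 0.05. F3 lies on opposite sides of 0 in the first and second comparison (−0.71 and 0.37), Plau and Plat lie far below 0 with USCs medium (−1.11 and −0.88 against aging RGCs), and the intervals of Vwf and Thbd are the widest.

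Levels of different genes were compared per length, in FPKM. In normal RGCs Plaur was highest at 89.6 ± 5.0 (SD, n = 3), followed by Plat at 65.2 ± 2.87 and F2r at 62.7 ± 1.94, whose ranges overlapped. Procr was next at 40.0 ± 5.12, and Plau, Tfpi and F3 stood together at 26.5, 26.4 and 25.6 with overlapping ranges. Thbd at 0.657 and Vwf at 0.11 were far lower. In aging RGCs no neighbours in the order overlapped: Plaur 84.1, F2r 68.4, Plat 57.7, Procr 35.7, Tfpi 27.7, Plau 23.9, F3 15.3, Thbd 0.553 and Vwf 0.28 FPKM. With USCs medium Plaur (72.8) and F2r (52.0) led, Procr (30.9) and Plat (29.7) overlapped, and Tfpi (27.1), F3 (18.7) and Plau (10.5) followed without overlap. The urokinase receptor was thus the most abundant member by this measure in each group, and Plau was the member of the plasminogen side with the lowest FPKM in each.

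Both activators were lower with USCs medium, and their balance was asked of the ratio of Plau to Plat in FPKM. It was 0.386 to 0.435 in the normal libraries, 0.392 to 0.444 in the aging ones and 0.328 to 0.381 with USCs medium. The mean log2 ratio was −1.30 ± 0.0881 (SD, n = 3), −1.27 ± 0.0903 and −1.50 ± 0.110. Normal and aging RGCs overlapped (difference 0.03, p = 0.7 in a two-sided exact permutation test). The libraries with USCs medium lay below both, by −0.23 against aging RGCs and −0.21 against normal RGCs, each with p = 0.1 in the exact permutation test, the smallest it can give.

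**Figure D3:**
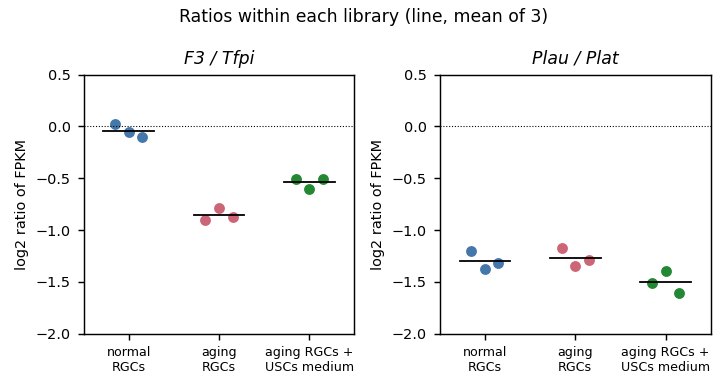
Log2 ratio within each library, from FPKM values, of F3 to Tfpi and of Plau to Plat (vertical axes), in the 3 groups; points are libraries and lines are means of 3. For F3 to Tfpi the group means are −0.05, −0.86 and −0.54 with no overlap, and for Plau to Plat the normal and aging libraries overlap while those with USCs medium lie below both.

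The other genes of the pathway were taken as a list of 51 genes, 22 of which were tested. Plg, the gene of plasminogen, and F2, the gene of prothrombin, were among 13 genes of the list at 0 in all 9 libraries, together with Fga, Fgb, F12, Kng1 and Vtn, which are made mainly in liver. A further 16 had some counts but too few for the test. In aging RGCs against normal RGCs 6 of the 22 rose, 8 fell and 8 did not pass, with a median log2 fold change of −0.10. In USCs medium against aging RGCs 10 rose, 7 fell and 5 did not pass (median 0.09), and against normal RGCs 8 rose, 7 fell and 7 did not pass (median 0.08). In the first comparison the list had 27.3% higher and 36.4% lower, beside 23.6% and 23% of all genes tested. In the second it had 45.5% higher and 31.8% lower, beside 27.1% and 26%. In the third it had 36.4% higher and 31.8% lower, near the 30.6% and 29.9% of all genes.

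Inhibitors of fibrinolysis were 1 of the roles in the list. Serpinb2, which encodes plasminogen activator inhibitor 2, was at 17.4, 24.0 and 17.9 CPM in normal RGCs, 26.8, 29.1 and 24.6 in aging RGCs, and 45.9, 55.5 and 50.5 with USCs medium, with no overlap between the medium group and the others. Serpinb2 also rose in aging RGCs against normal RGCs, with a log2 fold change of 0.44 ± 0.0966 (adjusted p = 0.000399, edgeR). Its log2 fold change with USCs medium was 0.92 ± 0.0879 against aging RGCs (adjusted p = 8.89e-10, edgeR) and 1.36 ± 0.0903 against normal RGCs (adjusted p = 2.78e-13, edgeR). Serpine2, which encodes protease nexin 1, an inhibitor of thrombin and urokinase, did not pass in aging RGCs against normal RGCs (−0.04, adjusted p = 0.5, edgeR) and fell with USCs medium against aging RGCs (−0.40 ± 0.0486, adjusted p = 7.27e-08, edgeR). Serpini1, with at most 43 counts in a library, fell there too (−0.83 ± 0.316, adjusted p = 0.0281, edgeR).

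Of the genes of uptake and partners of the activators, 4 of 5 were tested. All 4 passed with USCs medium against aging RGCs, 1 higher and 3 lower, where 27.1% of all genes tested rose and 26% fell. Vldlr was the 1 that rose there (0.17, adjusted p = 0.00191, edgeR). It was lower in aging RGCs than in normal RGCs (−0.61) and stayed below normal RGCs with USCs medium (−0.44). Lrp1, the endocytic receptor that clears activators bound to inhibitors, fell in each comparison (−0.25, −0.52 and −0.77 in the order used above). Mrc2, a collagen receptor that associates with the urokinase receptor, was at 173, 142 and 162 CPM in normal RGCs, 119, 122 and 120 in aging RGCs, and 72.0, 72.6 and 72.8 with USCs medium, a log2 fold change of −1.13 ± 0.0512 against normal RGCs (adjusted p = 6.80e-17, edgeR). Sorl1, a sorting receptor with urokinase among its ligands, had 29, 17 and 35 counts in normal RGCs, 58, 75 and 54 in aging RGCs, and 21, 18 and 26 with USCs medium. It was upregulated in aging RGCs (1.35 ± 0.270, adjusted p = 0.000148, edgeR) and downregulated with USCs medium against aging RGCs (−1.56 ± 0.280, adjusted p = 3.13e-05, edgeR).

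Among 21 clotting factors and genes of their processing 7 were tested. F8, the gene of factor VIII, which von Willebrand factor carries in plasma, had 50, 30 and 47 counts in normal RGCs, 80, 92 and 98 in aging RGCs, and 37, 39 and 40 with USCs medium. The aging libraries were above all others, as for Vwf. F8 was upregulated in aging RGCs (1.24 ± 0.207, adjusted p = 1.54e-05, edgeR) and downregulated with USCs medium against aging RGCs (−1.25 ± 0.210, adjusted p = 1.18e-05, edgeR). On FPKM values limma gave adjusted p-values of 0.0835 and 0.114 for the rise in aging RGCs. With USCs medium against normal RGCs F8 did not pass in edgeR (−0.02, adjusted p = 0.959). On FPKM values limma called it lower there (−0.20 and −0.59, adjusted p = 0.0435 and 0.034). F8 and Sorl1 averaged a log2 CPM of 1.56 and 0.958, under 2 as for Vwf. Of tested genes under that level, 5.27% were at least 2-fold upregulated in aging RGCs. With USCs medium against aging RGCs, 18.2% of them were at least 2-fold downregulated. Lman1 and Mcfd2, whose products ferry factors V and VIII out of the endoplasmic reticulum, both fell in aging RGCs (−0.16 and −0.19) and rose with USCs medium against aging RGCs (0.49 and 0.27). The other tested genes of this role did not share that pattern. Ggcx passed only in the second of these comparisons and fell (−0.34), and Vkorc1l1 rose in both (0.13 and 0.13). Vkorc1 and F13a1 passed in neither. Of all genes tested, 27.1% rose and 26% fell with USCs medium against aging RGCs. Of 2 tested inhibitors of clotting, Pros1, the gene of protein S, fell in aging RGCs (−0.28) and rose with USCs medium against aging RGCs (0.83). Proc, the other, passed in neither. F2rl1, the gene of protease-activated receptor 2, was the only other receptor of that family that was tested, and it moved opposite to F2r, by −0.15 in aging RGCs (adjusted p = 0.0414, edgeR) and 0.22 with USCs medium against aging RGCs (adjusted p = 0.00253, edgeR). The fall of F2rl1 in aging RGCs passed in 14 of 19 alternatives. It did not pass with DESeq2 (adjusted p = 0.0685) or, in edgeR, without the low-count filter (0.0593). Nor did it pass when normal replicate 2 or either of aging replicates 1 and 3 was left out (0.0664 to 0.162). The rise of F2rl1 with USCs medium did not pass with limma on FPKM (0.0612 and 0.0581). Among plasminogen and its receptors 4 of 5 genes were tested, and Anxa2 and S100a10, which form a surface complex that binds plasminogen and Plat, rose with USCs medium against aging RGCs (0.29 and 0.37). Plgrkt and Eno1 did not pass there.

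**Figure D4:**
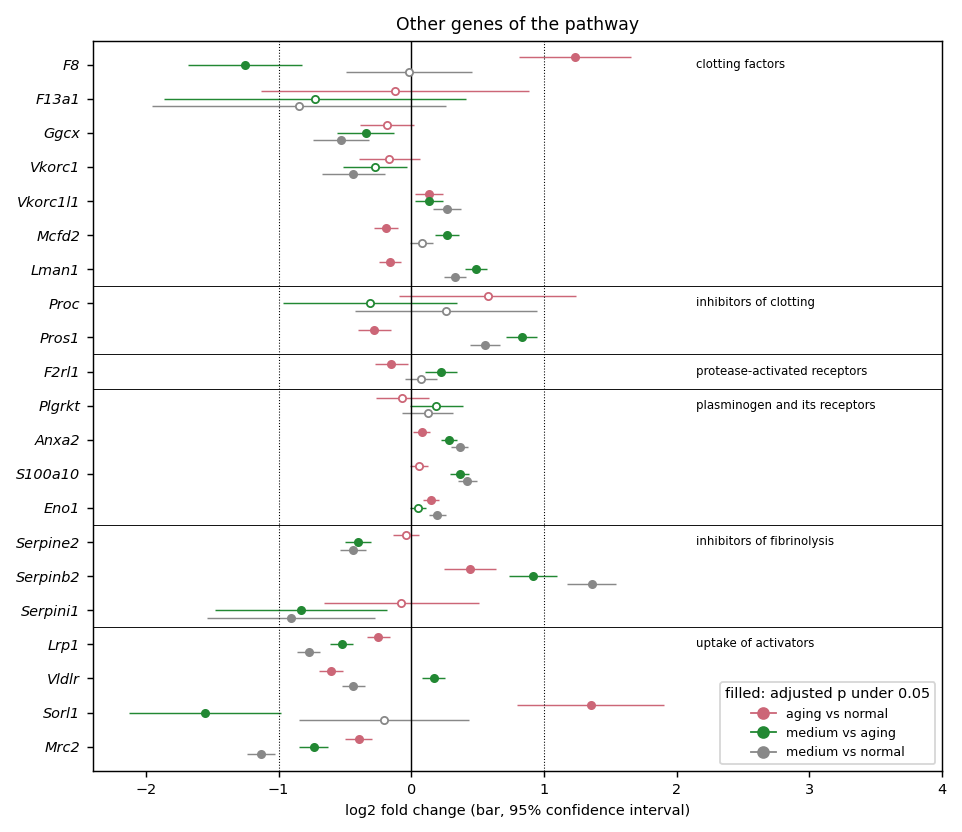
Log2 fold change (horizontal axis) of tested genes of the pathway list, grouped by role, in the 3 comparisons with 95% confidence intervals; filled points passed edgeR's test at an adjusted p under 0.05 and dotted lines mark a 2-fold change. F8 and Sorl1 lie above 1 in aging RGCs (1.24 and 1.35) and below −1 with USCs medium against aging RGCs (−1.25 and −1.56), and most other genes lie within the dotted lines.

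For the 3 members that were a DEG in some comparison, the genes with the most similar pattern over the 9 libraries were looked up among tested genes whose log2 CPM averaged 1 or more. Likeness was the mean absolute difference of log2 CPM after each gene was centred on its own mean. Nearest to Plau were Coro2b (0.0498), Cyth4 (0.0564) and Tecpr1 (0.0627), and nearest to Plat were Mtss1 (0.0551), Stard9 (0.0609) and Gm13889 (0.0639). Vwf itself averaged a log2 CPM of −0.25, so genes at its own low level were left out of its search. The nearest genes found for Vwf were farther off, Slc2a6 at 0.377, Tnip3 at 0.443 and Apln at 0.446. Their mean log2 CPM in normal RGCs, aging RGCs and USCs medium was 0.72, 1.88 and 0.67 for Slc2a6 and 4.22, 5.33 and 3.71 for Apln. These genes were picked by their likeness, which carries no test.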

How the data were processed

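Expected counts, which estimate reads per gene without normalization, and FPKM values, which take account of transcript length and library size, were both deposited by the authors. Libraries were made from oligo(dT)-enriched mRNA. The build mm10 is named in the submitters' processing notes, while the sources used here name no aligner or counting program. Groups came from the labels, and the D-galactose dose from the paper.

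Expected counts were rounded: 6.92% to 7.38% per library were not whole, although every value of the 9 members was. edgeR 4.0.16 in R 4.3.3 (filterByExpr, TMM, quasi-likelihood) fitted 1 mean per group on the 9 libraries together, leaving 6 residual degrees of freedom. Benjamini-Hochberg adjustment ran over 12145 genes, and DEGs were genes with an adjusted p below 0.05 whose log2 fold change was 1 or more in either direction. CPM were TMM-scaled, with factors of 0.9562 to 1.034. The steps were tested on simulated data. Ratios within a library used the deposited FPKM values and a two-sided exact permutation test. Coordinates came from GENCODE M21, where 22267 of 22322 identifiers matched, and promoters from RefSeq.

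The members, the pathway and marker lists and the alternatives were chosen with earlier results of these data known. Named were every member, Serpine2, Plg, F2, DEGs of the pathway list and, for members that were DEGs, the 3 genes most like each; the other genes named from the list, and the markers named singly, were chosen after their values were seen. 1 gene of the list entered its counts and is not reported here singly. Squared deviations between replicates of a group averaged 2.22 to 4.94 times the variance of counting noise, so none was counted as a duplicate. Alternatives were DESeq2 1.42.0, the likelihood ratio test, no TMM, upper-quartile factors, other count filters, only the groups compared, the replicate block, a 2-fold threshold, limma 3.58.1 on log2 FPKM, CPM in the ratios, and each library left out in turn.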

Additional observations from a re-analysis of the deposited data

How the results depend on the processing

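Of the fold changes of the 9 members under the alternatives, 492 kept direction and side of the threshold, 11 no longer passed, 5 passed only under the alternative and 5 reversed. For 12 of the pathway genes named, whose alternatives were added after the data were seen, these numbers were 653, 19, 3 and 9. With a fold change of at least 2, the members called in aging RGCs against normal RGCs were 1 higher and 0 lower, in USCs medium against aging RGCs 0 higher and 2 lower, and in USCs medium against normal RGCs 2 lower. The pathway list then gave 2 higher and 1 lower, 1 higher and 2 lower, and 1 higher and 1 lower. With limma on FPKM, under an offset of 1 or of 0.1 before the logarithm, aging RGCs against normal RGCs gave 1 member and 3 genes of the pathway list higher. The log2 ratio of F3 to Tfpi from CPM was 0.42 for USCs medium against aging RGCs and −0.36 against normal RGCs. All reversals concerned values that did not pass: in USCs medium against normal RGCs, Tfpi was −0.0858 without TMM factors, −0.0217 with upper-quartile factors and −0.0211 to 0.0404 with a library left out, Vwf was −1.04 to 0.12 with a library left out, F8 −0.19 to 0.10 and Sorl1 −0.43 to 0.0681. There Mcfd2 was −0.0219 and F2rl1 −0.0268 without TMM factors, and F2rl1 was −0.0254 and −0.0271 with limma. Serpine2 in aging RGCs against normal RGCs ran from −0.10 to 0.0023 with a library left out. The causes were not tested. Without TMM factors the median of all genes moved to −0.11 in USCs medium against normal RGCs, from −0.013, and against aging RGCs Tfpi (−0.13, adjusted p = 0.0261, edgeR) and Procr (−0.21, adjusted p = 0.0138, edgeR) passed; Procr also passed with only the groups compared (adjusted p = 0.0422, edgeR).

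With the replicate number as a block, the counts of members were unchanged in all 3 comparisons, at 2 higher and 3 lower, 1 higher and 5 lower, and 0 higher and 6 lower, and the pathway list gave 6 and 8, 10 and 7, and 8 and 7. Deviations of same-numbered libraries correlated at −0.037 to 0.048, so the number was taken as a name and not as a pairing. With 3 libraries per group, the intervals of Thbd and Vwf were the widest among the members; counting error and spread between wells were not separated.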

Other observations

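For most members the deposited counts and FPKM values were proportional. The transcript length implied by the pair of values differed by at most 1.05 times over the 9 libraries for 7 members. For Tfpi it was 2563 to 2638 bases in the normal group, 2463 to 2650 in the aging group and 2368 to 2400 with USCs medium, and for F8 it differed by 2.91 times over the libraries. The isoforms behind these values were not given in the files. The median log2 fold change of the 1916 tested genes with an average log2 CPM under 2 was −0.34 in USCs medium against aging RGCs, beside 0.018 for the 10229 genes above that level, where 6.94% of the former and 30.9% of the latter rose, and 25.8% and 26% fell. Macrophage and microglia markers summed to 59.0 to 70.6 CPM in the normal group, 44.6 to 51.2 in the aging group and 30.7 to 54.1 with USCs medium, with the highest value of the latter in replicate 3. Most of the sum was Cd68, at 38.6, 41.5 and 31.3 CPM on average in that order, whereas Lyz2 was at 15.3, 3.16 and 5.22, Csf1r at 3.42, 1.13 and 0.662, and Adgre1 at 1.84, 0.0529 and 0.614. Their part in the values of Plau and Plaur, which such cells also express, was not tested.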
